A study of Danio rerio with 3 samples.

Results

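Cholesterol is built from acetyl-CoA through mevalonate, farnesyl diphosphate, squalene and lanosterol, and the last sterol steps take place in the endoplasmic reticulum. When sterols in that membrane are low, the escort protein Scap carries the precursors of the Srebp transcription factors to the Golgi, where proteases release them, and the freed factors switch on the enzymes of synthesis and the LDL receptor. When sterols are high, Insig proteins hold Scap back. In zebrafish larvae the liver, the gut, the yolk layer and the growing nervous system are known to handle much cholesterol. The genes described here are those of cholesterol synthesis and of its sterol control. Of 30 gene names chosen for these roles, 23 had an identifier among the 27882 measured, and they gave 23 identifiers. All 23 held at least 20 reads summed over the 3 libraries, which was the minimum set for inclusion.

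Messenger RNA came from whole larvae of the AB background at 3 days post-fertilization, with 1 library per group. The HRAS larvae carried the GAL4 driver Tg(fli1ep:GAL4FF)ubs3, which acts in endothelial cells, together with Tg(UAS:eGFP-HRASV12)io006, an eGFP fusion of oncogenic human HRAS. In NICD larvae that driver was combined with tg(UAS:NICD)kca3, the active intracellular domain of Notch. Control larvae were wild type, with no driver named, so an effect of the driver and an effect of either transgene cannot be told apart. How many larvae went into a library is not stated in the labels.

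Nothing below has a replicate check. Each fold compares 2 libraries and not 2 conditions. Brackets hold the 95% interval of the fold, from an exact binomial calculation that takes counting error alone into account. Calls, higher or lower, followed a rule of size: 50 or more reads in the sum of both libraries, a fold of 2 or more in either direction, and a counting interval that does not include 1. The libraries held 41105619 corrected reads in HRAS, 21944303 in NICD and 26384466 in the control, of which the cholesterol genes held 43594, 19131 and 19262 reads in that order. Levels are the authors' RPKM, which are per length of the longest transcript, and folds come from scaled corrected reads. In RNA of whole larvae, a change in the number of cells that express a gene and a change in its RNA per cell cannot be told apart.

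Some names do not tell gene copies apart. A pair of names shared 1 identifier, and sqlea led to 2 identifiers named SQLE. The gene cyp51 was found under its human name, CYP51A1. No identifier carried the names hmgcs1, mvda, fdft1, nsdhl, dhcr7, insig2 or stard4, and these 7 were not analysed here.

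Enzymes around squalene and lanosterol, and the feedback gene insig1, were higher in HRAS than in control. The highest fold belonged to a squalene epoxidase, and the genes for the lanosterol synthase, the lanosterol demethylase and a sterol reductase followed it. In the NICD library the same squalene epoxidase and the demethylase did not differ from control beyond counting error, while insig1, SREBF1 and ldlra stood between 1.59-fold and 1.65-fold of it. In the list of fatty acid and lipid synthesis 1 of 15 genes was called higher in HRAS (6.67%), close to the share of all genes, 6.09%. FASN, fatty acid synthase, stood there at 0.904 of its control level [0.848 to 0.964]. On unique reads it stood at 0.872 [0.758 to 1.004], an interval that includes 1.

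The comparison of HRAS with control asked how the larval transcriptome differed when oncogenic HRAS was expressed in the endothelium. Of 22 cholesterol genes with enough reads for a call, 5 were higher (22.7%) and 0 were lower, where the same rule called 6.09% of 20873 genes higher and 4.14% lower. With a limit of 1.5-fold, 10 of 22 were higher (45.5%) and 0 lower, against 13.0% and 10.9% of all genes. The median log2 ratio of the 23 genes was 0.57, against 0.01 over 23330 genes with at least 20 reads. Ratios lay above 1 in 19 of 23 genes, against 11791 of the 23330. The share called higher was above that of all genes under both limits. The set was chosen with earlier results of these data known, so this excess is no independent check. Its genes are also neighbours in 1 regulated pathway and are not independent of each other.

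In the NICD library 1 of 22 cholesterol genes was called higher than in the control (4.55%) and 0 lower, against 3.56% and 3.12% of 20061 genes, which is close to the share of all genes. At 1.5-fold, 5 of 22 were higher (22.7%) and 2 lower (9.09%), against 10.6% and 7.86%. The median log2 ratio was 0.16, against 0.04 over all genes. The direct comparison of HRAS with NICD, which share the driver, called 2 of 22 higher (9.09%) and 0 lower, against 5.15% and 6.19% of 20856 genes. At 1.5-fold it gave 7 of 22 higher (31.8%) and 1 lower (4.55%), against 11.1% and 14.2%, and the median log2 ratio was 0.43, against 0.01 over all genes. The comparisons of HRAS and NICD with control share the control library, and HRAS with NICD shares a library with each of them.

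**Figure D1:**
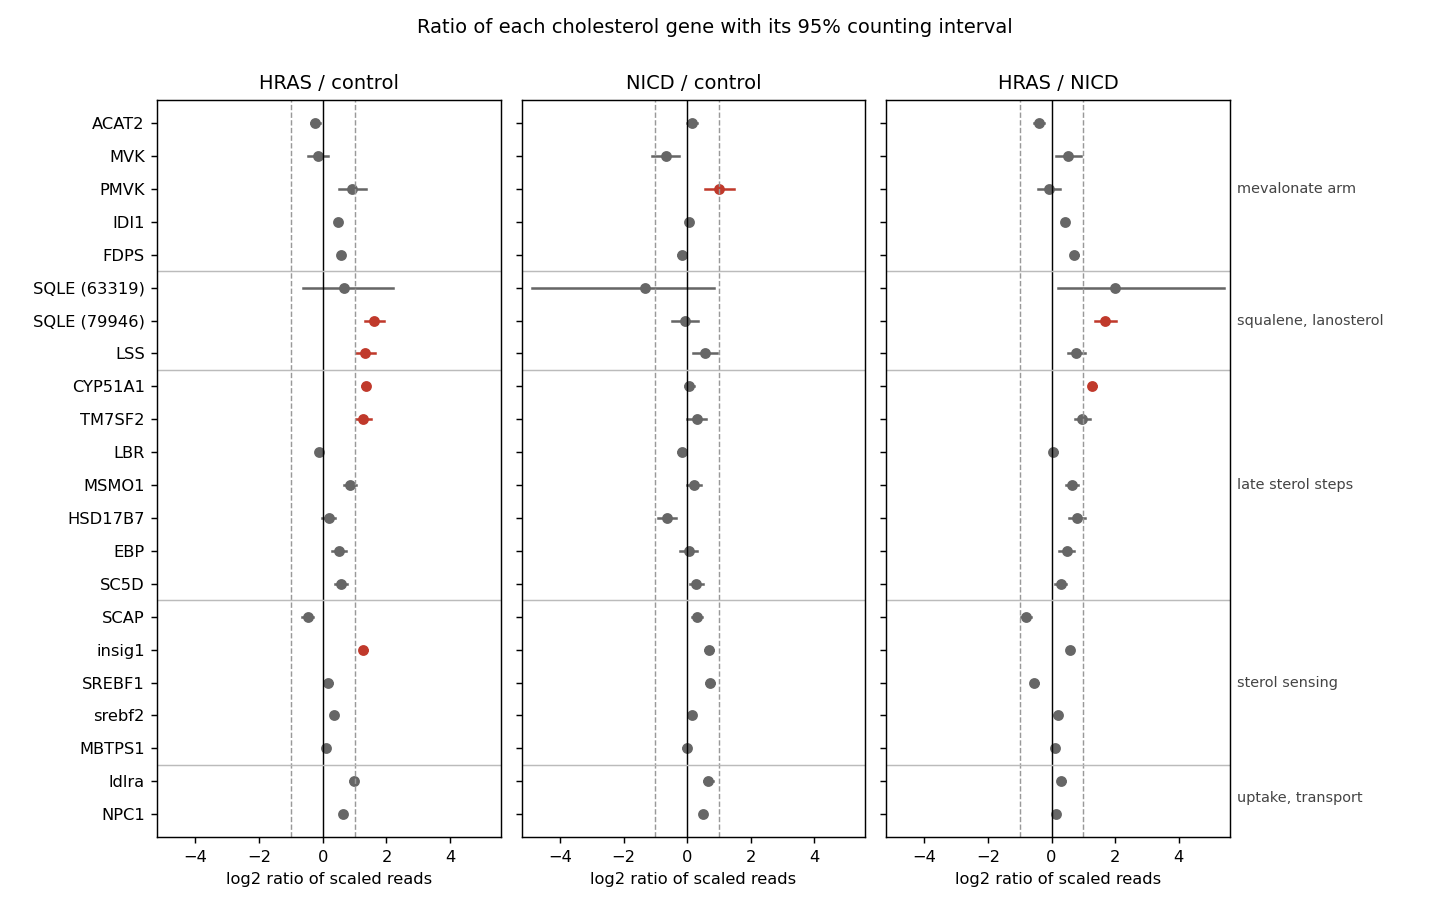
Log2 ratio of scaled corrected reads for 22 identifiers (points) with its 95% counting interval (lines) in HRAS against control, NICD against control and HRAS against NICD. Red marks genes called higher, dashed lines mark 2-fold, and the SQLE identifiers are told apart by their last digits; SQLE, LSS, CYP51A1, TM7SF2 and insig1 are called in the left panel, with folds between 2.41 and 3.07.

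Marker lists of cell types moved beside these differences, and part of every list was detected in each library of these whole larvae. The 7 endothelial markers summed to 506 CPM in HRAS, 153 CPM in NICD and 152 CPM in the control. Of these, 6 of 7 were called higher in HRAS against control (85.7%, against 6.09% of all genes). Unique reads were few for cdh5 (3 of 3213), CLDN5 ENSDARG00000014059 (8 of 6419) and tek (19 of 911). These calls could not be checked on unique reads. On unique reads FLI1 stood at 1.72, below the limit. The calls of KDR and TIE1 stayed above 2-fold on unique reads, with lower interval ends at 3.30 and 3.65. The 12 macrophage markers summed to 140, 92.2 and 56.5 CPM in HRAS, NICD and control. Several of the 12 are copies that share a name, MFAP4 or MPEG1. Of 10 with enough reads, 6 were called higher in HRAS (60%, against 6.09% of all genes). Among those called, LCP1 held 52 unique reads of 2981, SPI1 6 of 601 and MFAP4 ENSDARG00000038683 6 of 66. On unique reads LCP1 stood at 1.52 [0.769 to 3.34], an interval that includes 1. The calls of marco, MFAP4 ENSDARG00000090557 and MPEG1 ENSDARG00000055290 stayed above 2-fold on unique reads, at 3.58, 4.24 and 2.04. Of the 3 identifiers named MPEG1, 1 was listed at 0 in both NICD and control. In NICD against control the median macrophage fold was 1.07, with 1 of 9 called higher and 1 lower (11.1% each). The shares of all genes there were 3.56% and 3.12%. The MPEG1 identifier ENSDARG00000043093 alone stood at 37.2 CPM in NICD and 7.09 CPM in the control. The 9 liver markers summed to 2462, 2355 and 2641 CPM, of which tfa alone gave 987, 1000 and 1677 CPM. Of these 9, 6 lay above control in each transgenic library, with a median fold of 1.71 in HRAS and 1.62 in NICD. Of 23330 genes with at least 20 reads, 11791 lay above control in HRAS and 12451 in NICD. The 7 gut markers summed to 330, 299 and 352 CPM. Neural markers summed to 745, 1101 and 1029 CPM, myelin markers to 68.4, 83.9 and 90.3 CPM, and muscle markers to 13022, 13011 and 14552 CPM. The 5 retina markers summed to 314, 438 and 1644 CPM, and all 5 were called lower in both transgenic libraries than in the control. The shares of all genes called lower were 4.14% in HRAS and 3.12% in NICD. Steroid synthesis markers summed to 17.5, 20.5 and 22.6 CPM, with 1 CYP11A1 identifier at 0 in NICD. Yolk and endoderm markers summed to 3058, 3378 and 3867 CPM. Most of that sum was apoa2 (2579, 2802 and 3047 CPM) and APOB (437, 534 and 786 CPM), which are also lipoprotein genes. HNF4A stood at 1.07 of control in HRAS and 1.0 in NICD, and GATA5 at 1.45 [1.28 to 1.64] and 1.55 [1.35 to 1.78]. The gene mxtx2 was at 0 in HRAS and NICD, on 3 reads in the control. The cholesterol genes themselves summed to 1060, 867 and 734 CPM. The largest parts were NPC1 (183, 166 and 118 CPM) and srebf2 (143, 123 and 111 CPM), which are not enzymes of synthesis. The median log2 ratio of the 16 enzyme identifiers in NICD against control was 0.06. The part of these cell types in the cholesterol gene differences was not tested.

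The pathway opens with the mevalonate arm, where 6 identifiers were measured and 0 were called in HRAS against control. The same rule called 6.09% of all genes higher and 4.14% lower. At 1.5-fold, 2 of 6 were higher (33.3%, against 13.0% of all genes) and 0 lower (against 10.9%). FDPS, which makes farnesyl diphosphate at the branch between sterols and other isoprenoids, stood at 33.3 RPKM in HRAS, 20.4 RPKM in NICD and 22.5 RPKM in the control. HRAS was the high library, with a fold of 1.47 [1.38 to 1.57] against control and 1.65 [1.53 to 1.77] against NICD. IDI1, the isomerase that prepares the isoprene units, was also highest in HRAS, at 25.8 RPKM in HRAS, 19.2 RPKM in NICD and 18.3 RPKM in the control. Its fold in HRAS against control was 1.4 [1.32 to 1.49], but of 6440 reads in all only 4 were unique, so this fold could not be checked on unique reads.

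The kinases of mevalonate differed from each other. PMVK, phosphomevalonate kinase, stood at 1.78 RPKM in HRAS, 1.90 RPKM in NICD and 0.936 RPKM in the control, on 202, 115 and 68 reads. It was the gene called higher in NICD against control, at 2.0-fold [1.48 to 2.76], which is at the limit itself, and its fold in HRAS against control was 1.89 [1.43 to 2.53]. Only 11 of its reads were unique. MVK, mevalonate kinase, stood at 2.87 RPKM in HRAS, 2.02 RPKM in NICD and 3.18 RPKM in the control, and all of its reads were unique. It was lowest in NICD, at 0.629 of its control level [0.470 to 0.832], while its fold in HRAS was 0.895 [0.721 to 1.12]. ACAT2, which joins acetyl-CoA units at the entry to the pathway, stood at 12.3 RPKM in HRAS, 16.3 RPKM in NICD and 14.5 RPKM in the control. HRAS was its low library, at 0.846 of control [0.769 to 0.932].

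**Figure D2:**
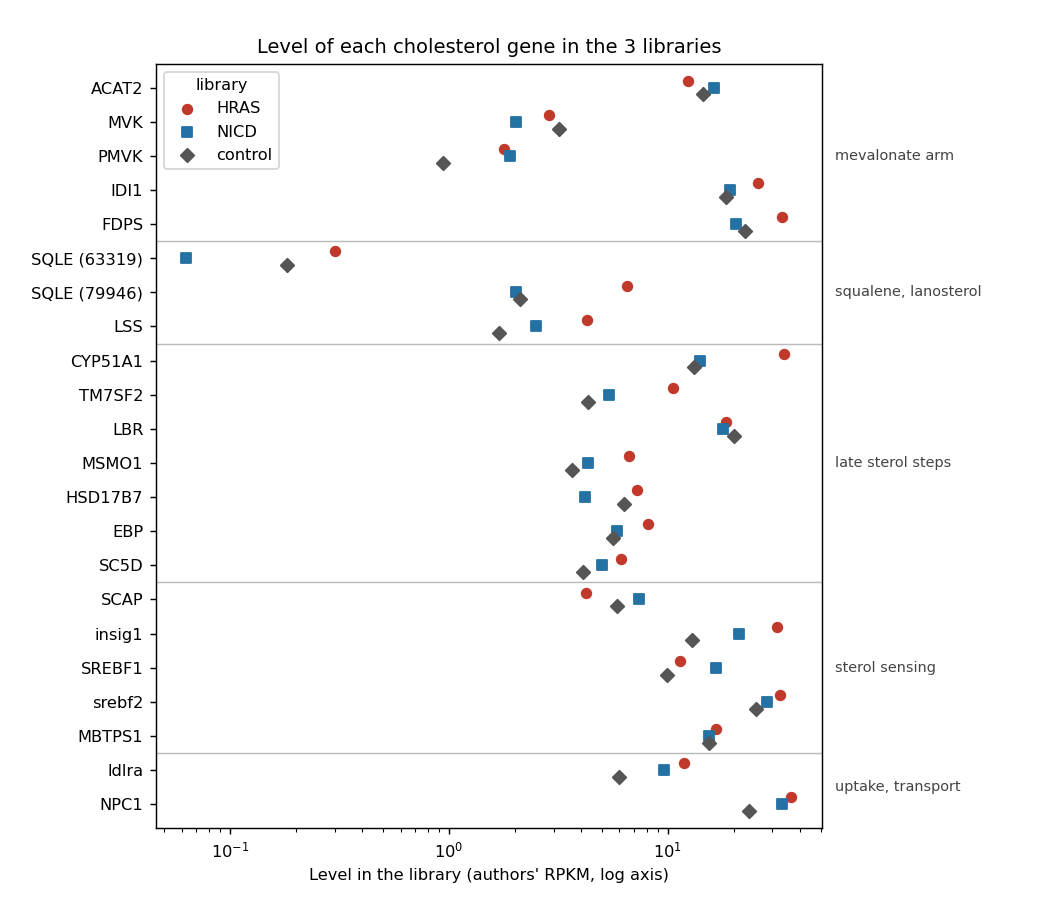
Authors' RPKM (log axis) of 22 identifiers in the HRAS, NICD and control libraries, 1 point per library, grouped by role. The HRAS point of CYP51A1 stands at 33.9 RPKM, apart from NICD at 14.0 and control at 13.2, whereas the 3 points of MBTPS1 lie between 15.5 and 16.5 RPKM.

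Squalene epoxidase adds oxygen to squalene and is a control point of the pathway. The SQLE identifier ENSDARG00000079946 held 559 reads in HRAS, 93 in NICD and 116 in the control, all of them unique, or 6.50, 2.03 and 2.10 RPKM. HRAS alone was high: the fold was 3.07 [2.51 to 3.79] against control and 3.21 [2.59 to 4.06] against NICD, while NICD stood at 0.954 of control [0.718 to 1.26]. The other SQLE identifier, ENSDARG00000063319, held 18, 2 and 7 reads in HRAS, NICD and control, none of them unique, and was too sparse for a call. Its fold was 1.57 [0.654 to 4.65] in HRAS against control and 0.396 [0.0344 to 1.78] in NICD against control, and both intervals include 1. In HRAS against NICD it was 3.97 [1.16 to 42.9].

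LSS, lanosterol synthase, folds the epoxide into the first sterol. It held 452 reads in HRAS, 141 in NICD and 114 in the control, all unique. The fold was 2.52 [2.06 to 3.14] in HRAS against control, 1.47 [1.14 to 1.90] in NICD against control and 1.72 [1.42 to 2.09] in HRAS against NICD. The order was therefore HRAS, NICD and control, with each neighbour's interval excluding 1.

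Of the 7 identifiers of the late sterol steps, 2 were called higher in HRAS against control (28.6%, against 6.09% of all genes). CYP51A1, the demethylase of lanosterol, held 3384 reads in HRAS, 745 in NICD and 846 in the control, and 96.3% of these reads were unique. It was 2.55-fold higher in HRAS than in control [2.37 to 2.76] and 2.44-fold higher than in NICD [2.25 to 2.64], while NICD and control did not differ beyond counting error, at 1.05 [0.948 to 1.16]. TM7SF2, a sterol reductase of the next step, stood at 10.5 RPKM in HRAS, 5.38 RPKM in NICD and 4.33 RPKM in the control. Its fold was 2.41 [2.04 to 2.85] in HRAS against control and 1.96 [1.67 to 2.32] against NICD. LBR, the lamin B receptor, is a protein of the inner nuclear membrane with the same reductase activity. It stood at 18.5, 17.9 and 19.97 RPKM in HRAS, NICD and control, a fold of 0.921 [0.864 to 0.982] in HRAS against control. TM7SF2 and LBR thus lay on opposite sides of control in the HRAS library, although only 43 reads of LBR were unique.

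MSMO1, the methylsterol oxidase that starts removal of the methyl groups, stood at 6.66 RPKM in HRAS, 4.30 RPKM in NICD and 3.66 RPKM in the control. Its fold in HRAS against control was 1.81 [1.60 to 2.05] on corrected reads and 1.44 [1.05 to 2.03] on unique reads. HSD17B7, a keto-sterol reductase, stood at 7.21 RPKM in HRAS, 4.16 RPKM in NICD and 6.32 RPKM in the control. NICD was its low library, at 0.651 of control [0.534 to 0.79], while the fold in HRAS was 1.13 [0.981 to 1.31]. On unique reads, 33.7% of its reads, HSD17B7 stood at 0.761 in NICD [0.554 to 1.03] and 0.913 in HRAS [0.711 to 1.18]. Both of these intervals include 1. EBP, a sterol isomerase, and SC5D, a sterol desaturase, both act close to the end of the pathway. EBP stood at 8.09, 5.86 and 5.6 RPKM in HRAS, NICD and control, a fold of 1.43 [1.23 to 1.67] in HRAS against control. SC5D stood at 6.09, 5.01 and 4.07 RPKM, a fold of 1.48 [1.32 to 1.68]. Neither passed the 2-fold limit against control. On unique reads EBP stood at 0.680 of control in NICD [0.483 to 0.942], against 1.03 on corrected reads [0.854 to 1.25], and at 2.12-fold in HRAS against NICD [1.59 to 2.88].

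Over all 16 enzyme identifiers from ACAT2 to SC5D the median log2 ratio was 0.61 in HRAS against control, 0.06 in NICD against control and 0.57 in HRAS against NICD. The median over the 3 identifiers of squalene and lanosterol was 1.33 in HRAS against control, over the 6 of the mevalonate arm 0.52 and over the 7 of the late steps 0.57. These medians rest on few genes and carry no interval.

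Among the genes of sterol sensing, insig1 showed the largest difference. Insig1 retains Scap in the endoplasmic reticulum when sterols are plentiful, and in mammals its gene is itself a target of the Srebp factors. It stood at 31.3 RPKM in HRAS, 21.1 RPKM in NICD and 12.9 RPKM in the control, on 3121, 1120 and 826 reads. The fold was 2.41 [2.23 to 2.61] in HRAS against control and 1.61 [1.47 to 1.77] in NICD against control, and HRAS stood 1.5-fold above NICD [1.4 to 1.60]. Unique reads gave 2.38 [2.07 to 2.74] and 1.5 [1.27 to 1.77] against control. All 3 libraries were apart from each other beyond counting error.

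The transcription factor genes differed from each other in which library was highest. The gene srebf2 encodes the factor known mainly for cholesterol genes, and it stood at 32.6 RPKM in HRAS, 28.3 RPKM in NICD and 25.2 RPKM in the control. Its folds were 1.29 [1.23 to 1.34] in HRAS and 1.11 [1.05 to 1.17] in NICD against control. SREBF1, known mainly for fatty acid genes, stood at 11.3 RPKM in HRAS, 16.6 RPKM in NICD and 9.94 RPKM in the control. NICD was the high library for SREBF1, at 1.65-fold of control [1.51 to 1.8], and HRAS stood at 0.683 of NICD [0.633 to 0.737]. Nearly all reads of both genes were unique.

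SCAP, the escort of the Srebp precursors, stood at 4.23 RPKM in HRAS, 7.36 RPKM in NICD and 5.86 RPKM in the control. HRAS was its low library, at 0.717 of control [0.642 to 0.80] and 0.578 of NICD [0.518 to 0.645], while NICD stood at 1.24 of control [1.11 to 1.39]. Unique reads made up 7.08% of its reads and gave 0.894 [0.580 to 1.4] in HRAS against control, an interval that includes 1. MBTPS1, the Golgi protease that makes the first cut in the precursors, stood at 16.5, 15.5 and 15.5 RPKM in HRAS, NICD and control. Its folds were 1.06 [0.9996 to 1.13] and 0.989 [0.921 to 1.06] against control, and both intervals include 1.

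Uptake and transport were represented by a receptor and a lysosomal exporter, and both were above control in both transgenic libraries. The gene ldlra encodes an LDL receptor, which takes up cholesterol in lipoproteins. It stood at 11.8 RPKM in HRAS, 9.61 RPKM in NICD and 6.0 RPKM in the control, with folds of 1.95 [1.8 to 2.12] and 1.59 [1.44 to 1.74] against control. Unique reads gave smaller folds of 1.57 [1.37 to 1.79] and 1.27 [1.09 to 1.49]. NPC1, which moves cholesterol out of lysosomes, held 7537 reads in HRAS, 3663 in NICD and 3099 in the control, all unique. Its folds were 1.55 [1.49 to 1.62] in HRAS and 1.41 [1.34 to 1.47] in NICD against control, and HRAS and NICD were closer to each other, at 1.10 [1.06 to 1.15].

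Of these identifiers 4, PMVK, IDI1, LBR and the sparse SQLE, held fewer than 50 unique reads in all. Among the other 19, the ratio on unique reads lay on the same side of 1 as that on corrected reads in 17 for HRAS against control, the exceptions being HSD17B7 and MBTPS1. It did so in 17 for NICD against control, with ACAT2 and EBP as exceptions, and in 19 for HRAS against NICD.

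**Figure D3:**
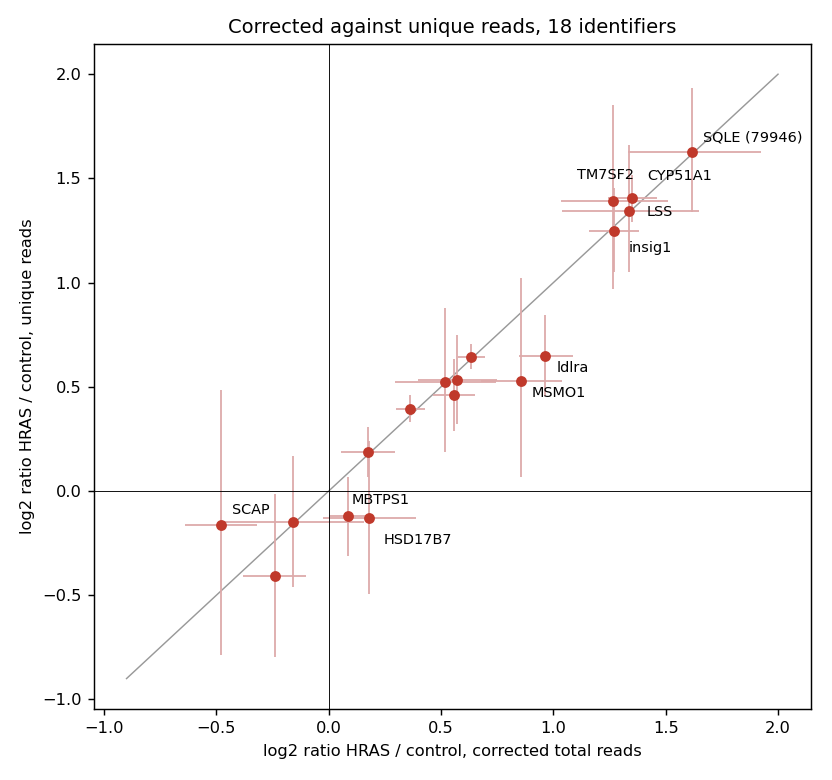
Log2 ratio of HRAS against control from corrected reads (horizontal) and from unique reads (vertical) for 18 identifiers with at least 50 unique reads, with 95% counting intervals and the line of equality. SQLE, LSS, CYP51A1, TM7SF2 and insig1 lie at the upper right near the line, and ldlra lies below it at a unique fold of 1.57.

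Further cholesterol genes outside the set were compared with it, and these lists were drawn up with results of these data known. Of 14 such genes with enough reads, 1 was higher and 1 lower in HRAS against control (7.14% each). The shares of all genes were 6.09% and 4.14%. The median log2 ratio over 15 genes was 0.15. SOAT1 and SOAT2 both encode enzymes that store cholesterol as ester, the first in many tissues and the other mainly in gut and liver of mammals. SOAT1 held 860 reads in HRAS, 280 in NICD and 269 in the control, and was 2.04-fold higher in HRAS [1.78 to 2.35]. On unique reads the fold was 1.86 [1.57 to 2.21], below the limit. SOAT2 held 91, 96 and 206 reads in HRAS, NICD and control, and HRAS stood at 0.283 of control [0.218 to 0.363], or at 0.148 [0.0724 to 0.266] on its 13 and 58 unique reads. In NICD it stood at 0.556 of control [0.430 to 0.709], and on unique reads at 0.677 [0.425 to 1.05], an interval that includes 1. The genes of cholesterol esterification thus lay on opposite sides of control in the HRAS library. In NICD against control 0 of 14 were called, against 3.56% of all genes higher and 3.12% lower. NPC2, the partner of NPC1, stood at 0.655 of control there [0.607 to 0.706], and ldlrb, another LDL receptor gene, at 1.31 [1.22 to 1.42].

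In HRAS against control, 1 of 15 genes in the list of fatty acid and lipid synthesis was higher and 0 were lower. Their median log2 ratio was -0.15. The list also holds fatty acid binding genes and TMEM97, which are not synthesis enzymes. The share called higher, 6.67%, is close to the 6.09% of all genes. The gene called was SCD, a desaturase, at 2.0-fold [1.42 to 2.93] on 133 and 42 reads. On unique reads it stood at 1.57 [0.966 to 2.71], below the limit and with an interval that includes 1. The desaturase gene scdb, with more reads, stood at 0.718 [0.664 to 0.775], and GPAM, an acyltransferase of glycerolipid synthesis, at 0.654 [0.607 to 0.704]. In NICD against control the median was 0.10, with 1 of 15 higher (6.67%, against 3.56% of all genes), again SCD at 2.53-fold [1.75 to 3.77]. LPIN1, a phosphatidate phosphatase, stood at 1.86 [1.68 to 2.07], whereas GPAM stood at 0.589 [0.538 to 0.645]. At 1.5-fold the list was split in NICD, with 3 of 15 higher (20%) and 3 lower (20%). The shares of all genes at that limit were 10.6% and 7.86%. Of the 3 lower, which include a fatty acid binding gene, only GPAM kept an interval below 1 on unique reads, at 0.586 [0.534 to 0.641]. The 3 higher all kept intervals above 1 on unique reads, with FASN at 1.45 [1.26 to 1.67]. FASN stood at 5.76 RPKM in HRAS, 10.0 RPKM in NICD and 6.34 RPKM in the control, with NICD at 1.56 of control [1.47 to 1.67] and HRAS at 0.578 of NICD [0.545 to 0.614]. NICD was the high library for both SREBF1 and FASN, while GPAM stood below control there. A link between SREBF1 and the genes of this list was not tested.

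Genes of the isoprenoid branch, which draw on the same precursors, had median log2 ratios of -0.21 (HRAS) and -0.38 (NICD) when set against the control. In either, 0 of 12 were called. The shares of all genes were 6.09% higher and 4.14% lower in HRAS, and 3.56% and 3.12% in NICD. At 1.5-fold, 2 of 12 were lower in HRAS (16.7%, against 10.9% of all genes) and 3 of 12 in NICD (25%, against 7.86%). At that limit 0 were higher in either. COQ2, of ubiquinone synthesis, stood at 0.633 [0.554 to 0.722] in HRAS and 0.600 [0.509 to 0.705] in NICD.

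For efflux, LXR and oxysterol genes the median log2 ratio to control was -0.07 in HRAS and 0.12 in NICD. The LXR gene nr1h3 itself had no identifier and was not measured. In HRAS 1 of 17 was higher (5.88%, against 6.09% of all genes), CH25H, which makes an oxysterol that restrains Srebp processing. It was named after its values were seen, and held 51 reads in HRAS, 27 in NICD and 6 in the control, a fold of 5.06 [2.33 to 15.5]. NICD stood at 5.03 of control [2.16 to 15.8], on too few reads for a call. In NICD 2 of 16 were higher (12.5%, against 3.56% of all genes). ABCA1, a transporter that exports cholesterol from cells, stood at 12.7 RPKM in HRAS, 27.0 RPKM in NICD and 13.3 RPKM in the control. It was 2.01-fold higher in NICD than in control [1.93 to 2.10], close to the limit, and HRAS stood at 0.475 of NICD [0.457 to 0.493]. The gene abca1b, another copy with more reads, stood at 0.964 of control in NICD [0.923 to 1.01]. The other gene called was the CYP27A1 identifier ENSDARG00000088013, a sterol hydroxylase gene, at 2.22-fold [1.51 to 3.35]. Also named CYP27A1, ENSDARG00000055159 stood at 1.53 in NICD [1.06 to 2.22] and ENSDARG00000069186 at 0.955 [0.557 to 1.61]. The MYLIP identifier ENSDARG00000055118 encodes a ligase that degrades the LDL receptor in mammals, and it stood at 1.8 in NICD [1.56 to 2.09]. The other MYLIP identifier, ENSDARG00000008859, stood at 0.961 in NICD [0.845 to 1.09].

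For lipoprotein genes it was 0.12 in HRAS and 0.08 in NICD. In HRAS 1 of 12 was higher (8.33%, against 6.09% of all genes), the lipase gene LIPC, on 45 reads against 9 in the control. The count in NICD was 0 of 11, against 3.56% of all genes. Of 72 LIPC reads in all only 1 was unique, so this call could not be checked on unique reads, and LIPC, too, was named after its values were seen. APOB, the structural protein of lipoprotein particles, stood at 33.0 RPKM in HRAS, 40.5 RPKM in NICD and 58.9 RPKM in the control, or at 0.557 [0.546 to 0.568] and 0.679 [0.664 to 0.695] of control. LPL, the lipase of vessel walls, stood at 1.57 in HRAS [1.48 to 1.66] and 1.39 in NICD [1.31 to 1.49].

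**Figure D4:**
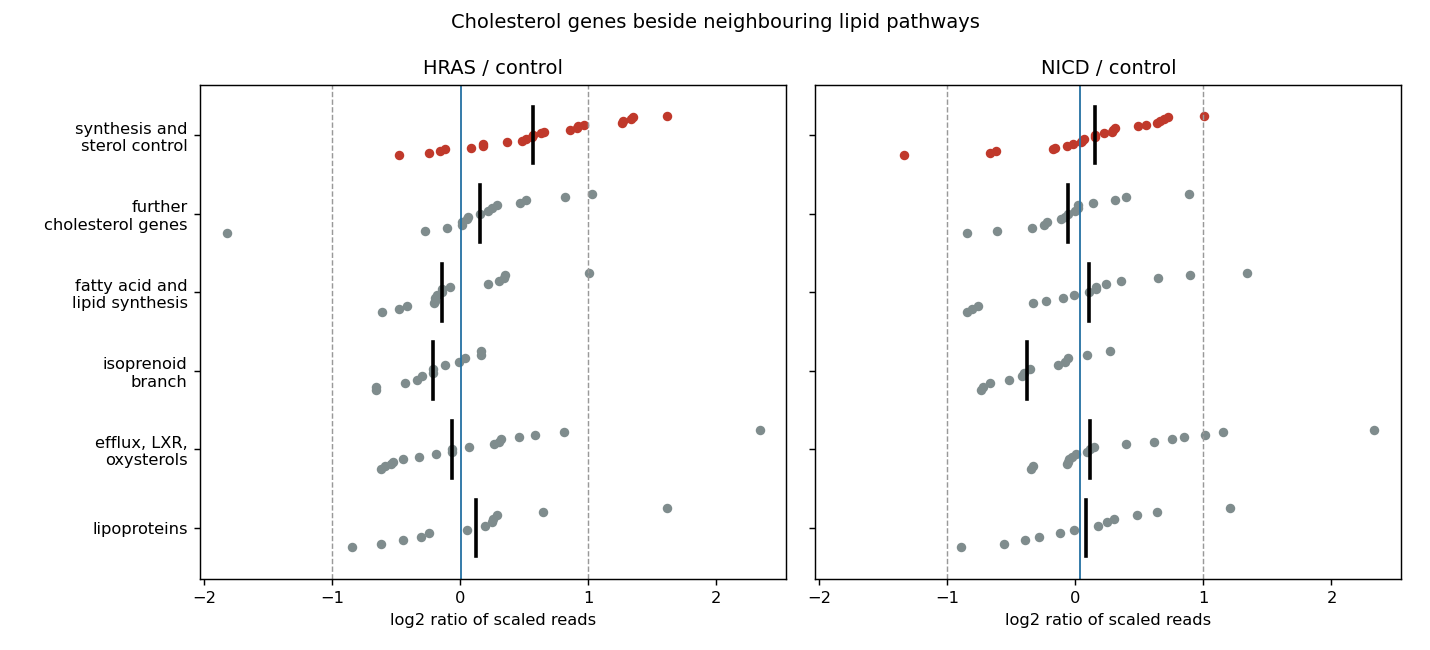
Log2 ratios of the 23 genes of cholesterol synthesis and sterol control (red) and of 5 neighbouring gene lists (grey) in HRAS against control and NICD against control, 1 point per identifier with at least 20 reads. Black bars are list medians, the blue line is the median of all genes and dashed lines mark 2-fold; in the left panel the red median is 0.57 and that of fatty acid and lipid synthesis is -0.15.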

How the data were processed

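Per the series' design text, sequencing was done on a HiSeq 2000, and CLC bio Assembly Cell 3.2 placed the reads on Ensembl release 63 cDNAs of zebrafish assembly Zv9. The submitters' processing notes list CASAVA 1.8. Neither mapping parameters nor strand use is given in the sources used here. Per the file headers, the authors deposited for each gene the count of unique reads, the count of non-unique reads, corrected total reads and RPKM. Corrected reads are expected counts made by the authors from unique reads and a share of non-unique reads, and they are whole numbers. Recomputing the authors' RPKM from corrected reads, longest transcript and library total gave differences of up to 0.268% in genes with at least 200 reads. The unique share of corrected reads was 50.3% in HRAS, 51.0% in NICD and 50.9% in the control, and a read shared by transcripts of 1 gene also counts as not unique.

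Identifiers were named from a table of gene symbols, which covered 19635 of 27882. Library sizes were adjusted by TMM (edgeR 4.0.16 in R 4.3.3), 0.5 reads were added to each library, and intervals were computed with scipy 1.17.1. Differential tests were not possible with 1 library per group, and no p-value was computed. Of the set, 22 identifiers are described and plotted singly and counts and medians cover all 23; some genes of these lists are not reported here. Of each other list up to 3 with the largest ratio among those with at least 200 reads were considered, together with genes behind a count of 5 or fewer. The members and lists were chosen with earlier results of these data known. No molecular identifiers were used as far as the labels say, so reads are not all separate molecules and the intervals can be too tight. Alternatives were unique reads, scaling by totals, by DESeq2 1.42.0 size factors and by upper quartile, the authors' RPKM, other read minimums, other added reads and fold limits, and thinning. No sequences are shown.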

Additional observations from a re-analysis of the deposited data

Results flagged for a closer look

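In 3 of 23 genes the HRAS and NICD libraries lay on opposite sides of the shared control with both counting intervals excluding 1. The share of all genes with this pattern is not given here. Of 23330 genes, the HRAS interval against control lay above 1 in 7037 and below 1 in 6836. For NICD against control these counts were 6733 and 5588. The pattern is therefore not read as a trait of these genes. The difference between HRAS and NICD was not tested, as each group has 1 library. Compared directly, HRAS stood at 0.578 of NICD [0.518 to 0.645] in SCAP, 1.65 [1.53 to 1.77] in FDPS and 0.760 [0.689 to 0.839] in ACAT2. On unique reads this ACAT2 interval, [0.581 to 1.03], includes 1. SCAP stood at 0.717 of control in HRAS [0.642 to 0.80] and at 1.24 in NICD [1.11 to 1.39]. On unique reads it stood at 0.894 [0.580 to 1.4] and 1.43 [0.911 to 2.26]. FDPS stood at 1.47 in HRAS [1.38 to 1.57] and 0.894 in NICD [0.822 to 0.972], and on unique reads at 1.37 [1.22 to 1.55] and 0.962 [0.829 to 1.12]. ACAT2 stood at 0.846 in HRAS [0.769 to 0.932] and 1.11 in NICD [1.002 to 1.24], where the interval barely excludes 1. On unique reads ACAT2 stood at 0.754 [0.576 to 0.989] and 0.979 [0.726 to 1.31]. On unique reads the NICD intervals of all 3 genes thus included 1.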

How the results depend on the processing

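No paired analysis was possible because each group has 1 library. The counts called follow the fold limit. At 1.5-fold, 10 of 22 were higher in HRAS against control, where 13.0% of all genes were. In NICD against control 5 of 22 were higher and 2 lower, against 10.6% and 7.86% of all genes. In HRAS against NICD 7 of 22 were higher and 1 lower, against 11.1% and 14.2% of all genes. At 4-fold 0 were higher in each, and no share of all genes is given for that limit. The single call in NICD against control, PMVK, was lost (count 0) on unique reads, with DESeq2 size factors, with upper quartile scaling, with the authors' RPKM, with 5 reads added, with a minimum of 200 reads, after thinning to the smallest library and among members with at least 50 unique reads. On 1 unique read in NICD and 2 in the control, the log2 ratio of PMVK turned to -0.50. Without CYP51A1, 1 gene was called higher in HRAS against NICD. These last alternatives, without CYP51A1 and with at least 50 unique reads, were chosen after seeing the data. The median log2 ratio ran from 0.53 to 0.61 in HRAS against control, from 0.12 to 0.22 in NICD against control and from 0.32 to 0.47 in HRAS against NICD over the alternatives run. Depth limits PMVK, MVK, LSS and both SQLE identifiers most.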

Other observations

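The liver markers, whose tissue is a main site of cholesterol synthesis, did not move as a block. The fibrinogen genes fga, FGB and FGG stood between 1.71 and 1.89 of control in HRAS and between 1.52 and 1.67 in NICD. Of 19739 FGG reads in all only 41 were unique, and on these its interval in HRAS, [0.494 to 4.47], includes 1. CP, the copper protein ceruloplasmin, was called higher in both, at 3.30 in HRAS [3.14 to 3.47] and 3.44 in NICD [3.26 to 3.62]. TTR, transthyretin, was also called higher in both, at 2.71 [1.91 to 4.01] and 2.30 [1.55 to 3.52]. Only 25 of its 275 reads were unique, and on these its intervals, [0.910 to 17.3] and [0.630 to 16.5], include 1. The liver fatty acid binding gene fabp10a stood at 0.619 of control in HRAS [0.560 to 0.684] and 0.822 in NICD [0.736 to 0.917]. The transferrin gene tfa stood at 0.589 [0.581 to 0.597] and 0.597 [0.587 to 0.606]. Of 106650 tfa reads only 50 were unique, and these gave 0.168 [0.0640 to 0.356] and 0.382 [0.162 to 0.770]. Both ratios of each gene use the same control library.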
